A study of Mus musculus with 8 samples.

Results

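The 447 regions described here were enriched in PRDM16 ChIP-seq of cortex in which Prdm16 had been conditionally deleted, and were called in neither wild-type library. ChIP-seq sequences the DNA that an antibody pulls down with crosslinked chromatin. They were chosen by the peak calls themselves. A region was kept when peaks of both knockout lists overlapped by at least 1 bp, no peak of either wild-type list overlapped it, and its summit lay over 1 kb from every annotated end of a protein-coding gene. Both knockout lists shared 1723 regions, of which 801 (46.5%) were in neither wild-type list. Of the 1070 shared regions away from gene ends, 447 (41.8%) were in neither. These shares are fixed by the choice of regions and are descriptions.

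All embryos were at E15.5, and whole cortex was lysed. The wild-type group (WT) carried 2 floxed Prdm16 alleles and no Cre. The knockout group (cKO) carried the same floxed alleles with Cre recombinase expressed from the Emx1 locus (Emx1Ires-Cre). Emx1 is active in the dorsal telencephalic lineage, so cortical cells of other origin, such as interneurons, blood vessels and microglia, keep an intact gene. Each genotype had 2 ChIP libraries made with the same donated antibody. No label says whether replicates came from separate embryos, nor whether embryos were pooled. The names of the deposited lists carry one library identifier for both WT lists and another for both cKO lists, so genotype and whatever the identifier marks cannot be told apart. The lists hold 13852 and 26652 peaks in WT and 4553 and 3088 in cKO. The background pileup, read from the smallest value in each list, was 0.777 and 1.78 reads per base in WT and 2.95 and 2.52 in cKO.

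PRDM16 binds DNA through zinc fingers, belongs to the PR-domain proteins and is known in the cortex from radial glia, the neural stem cells. Where its gene has been deleted, a ChIP for it serves as the control for the antibody. CTCF, whose binding letters recur below, is an unrelated zinc-finger protein that recognises a long DNA motif and, with cohesin, anchors chromatin loops and domain borders.

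Sequence could be read where a summit fell in a RefSeq promoter window, which spans 250 bases before to 50 after a transcript start. This held for 29 regions. They lie at a start inside an annotated gene, or at the start of a long non-coding RNA. Of these 29 regions, 12 (41.4%, 95% interval 25.5 to 59.3) had letters of the CTCF motif on either strand in their window. The letters searched were CC, any 3 bases, AG, any base, and GGGC; a narrower form with G at the last open base is contained in them. The stretches below, from RefSeq (GRCm38.p6), show that match in its surroundings. They are the 7 regions of highest mean fold whose match lies before the transcript start. Left out were stretches that would overlap the first 50 transcribed bases at a listed start of a coding gene. Each stretch shown runs 5′ to 3′ on the strand of the named gene and ends before its transcript start, with the match in capitals. All but the Gm52265 region had their summit in a protein-coding gene body. The region of the Otop2 stretch had its summit in the body of Ush1g. The genome positions are chr9:96889475-96889574 (minus strand) for Pxylp1, chr9:57645654-57645753 (minus) for Csk, chr16:5306730-5306829 (minus) for the long non-coding RNA Gm52265, chr2:156720865-156720964 (plus) for Dlgap4, chr2:154613243-154613342 (plus) for Zfp341, chr11:115322430-115322529 (plus) for Otop2 and chr7:16310083-16310182 (plus) for Bbc3.
Pxylp1: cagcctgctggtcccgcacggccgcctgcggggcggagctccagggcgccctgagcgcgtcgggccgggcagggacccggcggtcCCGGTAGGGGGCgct
Csk: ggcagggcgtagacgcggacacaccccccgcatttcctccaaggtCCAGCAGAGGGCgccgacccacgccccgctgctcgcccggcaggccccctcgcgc
Gm52265: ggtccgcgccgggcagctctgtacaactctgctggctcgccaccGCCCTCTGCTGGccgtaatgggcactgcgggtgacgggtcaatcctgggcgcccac
Dlgap4: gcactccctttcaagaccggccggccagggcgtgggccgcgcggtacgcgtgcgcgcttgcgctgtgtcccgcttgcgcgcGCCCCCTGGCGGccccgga
Zfp341: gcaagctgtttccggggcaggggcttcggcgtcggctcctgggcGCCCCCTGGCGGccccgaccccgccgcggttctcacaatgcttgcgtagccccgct
Otop2: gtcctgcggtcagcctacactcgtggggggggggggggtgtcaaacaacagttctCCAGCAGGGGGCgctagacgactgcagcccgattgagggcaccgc
Bbc3: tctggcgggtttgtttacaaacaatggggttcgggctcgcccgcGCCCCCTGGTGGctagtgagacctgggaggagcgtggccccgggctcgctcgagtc

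In Pxylp1, Csk and Otop2 the match reads on the gene's strand, and in the windows of Gm52265, Dlgap4, Zfp341 and Bbc3 on the opposite one. Dlgap4 and Zfp341 show the same 12 bases, GCCCCCTGGCGG. The centre of the match lay 5 bp from the region's summit in Pxylp1, 9.5 bp in Otop2, 16 bp in Dlgap4, 17 bp in Bbc3, 37 bp in Csk, 42.5 bp in the Gm52265 window and 60 bp in Zfp341. Over the 12 regions with a match, the distance from summit to nearest match had a median of 17.5 bp, from 5 to 62, and was at most 50 bp in 10. Matches were searched only in the window that holds the summit, which bounds the distance. No distances of other motifs or classes were set beside it. The other regions with the letters had them in windows of Aldoa, Gm46218, Col27a1, Gm38293 and Psma6.

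These genes span many functions. Csk encodes the kinase that restrains Src-family kinases, Bbc3 the p53-induced apoptosis activator PUMA, Dlgap4 a postsynaptic scaffold protein, Otop2 a proton channel and Zfp341 a zinc-finger transcription factor. The Pxylp1 region, on chromosome 9 from 96889261 to 96889572, had folds of 8.19 and 5.01 in cKO replicates 1 and 2. Folds here are the authors' values, which equal the summit's pileup plus 1 over the local background plus 1, so the added 1 lowers a fold most where the background is low. The Csk region had 6.29 and 6.61, the Dlgap4 region 5.52 and 5.44, the Zfp341 region 4.39 and 6.51, and the Bbc3 region 5.46 and 4.90. These values are ordinary among the cKO-only regions: the 12 regions with CTCF letters had a median mean fold of 5.47 (4.33 to 6.60), and the 17 promoter-window regions without them 4.57 (3.26 to 10.4).

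In the other region classes, all held to the same 1 kb rule, the same letters were found for 6 of 26 regions (23.1%, 11.0 to 42.1) in both cKO lists and a WT list, and for 2 of 125 (1.60%, 0.440 to 5.65) in both WT lists and neither cKO list, called WT-only regions. The median GC content of these windows was 69% for the cKO-only, 64.8% for the shared and 50.3% for the WT-only regions. The differences in letters were not tested, and the intervals of the cKO-only and shared regions overlap. Regions called in a single list gave 13.5% of 52 for cKO replicate 1, 3 of 25 for cKO replicate 2, 9.09% of 33 for WT replicate 1 and 2.65% of 264 for WT replicate 2. By window, where a region can touch 2 that overlap, the cKO-only regions had the letters in 16 of 34 windows (47.1%, 31.5 to 63.3). That interval treats the windows as separate. Their summits fell in 34 of the 32851 RefSeq windows (0.103%). Among all 32851 windows 3.21% had the letters, and among the 9690 windows with a GC content of 60% or more 6.10%. These sets of all windows are not held to the 1 kb rule and include starts at gene ends. With a broader form, in which the first G of GGGC may be any base, chosen after the data were seen, the shares were 58.6% of cKO-only, 42.3% of shared and 10.4% of WT-only regions, against 8.61% of all windows. A match is a string of letters and not a measured site, and windows were at hand for few of the regions.

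**Figure D1:**
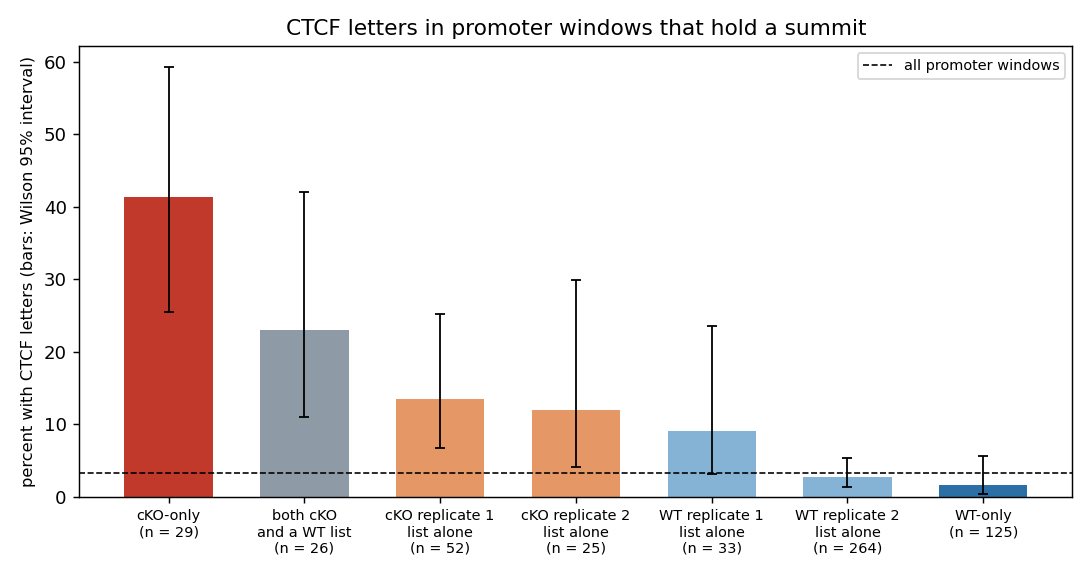
Percent of regions whose promoter window holds the CTCF letters, by region class, with Wilson 95% intervals and the number of regions under each bar. The dashed line is the share of all RefSeq promoter windows (3.21%), counted by window and not held to the 1 kb rule. The cKO-only bar is at 41.4%, the bar for regions in both cKO lists and a WT list at 23.1%, and the WT-only bar at 1.60%.

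The 34 windows with a cKO-only summit were rich in G and C. Their GC content had a median of 67.7% (42.3 to 82.7), against 52.7% over all windows, and 27 of 34 were at 60% or more, against 29.5% of all. They held a median of 28 CpG dinucleotides, against 7. Letters of NRF1 (GCGC, any 2 bases, GCGC) were in 26.5% of the 34 against 6.23% of all, and the SP/KLF letters GGGCGGGG in 26.5% against 17.6%. The NFY letters CCAAT were in 23.5% against 37.4%, the E-box letters CAGCTG or CAGATG in 20.6% against 30.6%, ETS (CCGGAAGT) in 5.88% against 3.89%, SOX (AACAATG) in 5.88% against 3.78%, TEAD (GGAATG) in 5.88% against 14.7%, YY1 (AANATGGCG) in 2.94% against 2.38% and AP-1 (TGANTCA) in 2.94% against 7.81%. No window held the letters of CRE (TGACGTCA or the shorter TGACGTA), RFX, ZNF143, REST (TTCAGCACC) or the Pol III B box, nor the telomere-like repeat or the simple repeats of CA, GA, CCA and GGAA that were searched. Over all windows these letters were rare too, from 0.00609% for the GGAA repeat to 1.79% for TGACGTCA. The zeros therefore do not set these windows apart. A count of 0 in 34 allows a share of up to 8.82% by the limit of 3 counts, and of 10.2% by the Wilson interval. Both limits treat the 34 windows as separate, though they come from 29 regions and windows of the same region overlap. All letters were searched on both strands, and a window can hold several. The set of all windows is not held to the 1 kb rule from gene ends. Only the CTCF letters were also counted among all windows with a GC content of 60% or more. What part GC content has in the other shares was not tested.

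Of the 29 regions in promoter windows, 23 were in a window of a protein-coding gene, 8 in one of a long non-coding RNA and 2 in both. Among the protein-coding ones was App, the gene of the amyloid precursor protein, with a region on chromosome 16 from 85173615 to 85173915 at 6.58 and 6.02; its summit was 76.5 bp before a listed start and 1471.5 bp from the annotated gene end. Bcl2l1, which encodes the survival factor BCL-XL, had 6.46 and 6.99, with a summit 18 bp before a listed start and 2057 bp from the nearest gene end. Aldoa, a glycolysis enzyme gene, had 4.99 and 6.83, and the transcription factor gene Stat5b 4.29 and 4.27. The highest of these 29 lay at the start of the long non-coding RNA Gm31408, with 10.6 and 10.1. Promoter-window regions made up 6.67% (4.68 to 9.41) of the 435 cKO-only regions outside chromosome 18, 4.31% of the shared class and 1.49% of WT-only regions. The difference from WT-only regions passed (odds ratio 4.72, Fisher's exact test, adjusted exact p = 1.8e-09), and that from the shared class did not (odds ratio 1.59, adjusted exact p = 0.23). Since regions of one list share a library, the p-values here compare lists and carry no spread between embryos.

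Among all 447 regions, few lay far from genes. Only 39 (8.72%, 6.45 to 11.7) had a summit over 100 kb from any protein-coding gene, against 21.8% (21.0 to 22.7) of the 8714 WT-only regions away from gene ends. The odds ratio was 0.343 (Fisher's exact test, adjusted exact p = 1.0e-11). In the single cKO lists, counting regions in neither WT list, the share was 7.08% and 9.13% in replicates 1 and 2. In the single WT lists, counting regions in neither cKO list, it was 21.3% and 20.3%. Both cKO values lay below both WT values. The 2 lists of a genotype share many of these regions, so their values are not independent. The class shared by cKO and WT had 11.4% (9.13 to 14.1), from which the cKO-only regions did not differ past the threshold (odds ratio 0.743, adjusted exact p = 0.28). That call depended on the libraries: the difference, in percentage points, passed without cKO replicate 2 (-4.68, adjusted exact p = 0.00014), without WT replicate 1 (-4.52, 0.047) and with the replicate block (-6.73 for the libraries numbered 1 and -4.16 for those numbered 2).

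Gene bodies held 244 of the 447 summits (54.6%, 49.95 to 59.1). The share was 45.4% in the class shared by cKO and WT (odds ratio 1.44, Fisher's exact test, adjusted exact p = 0.014) and 49.1% in WT-only regions (odds ratio 1.25, adjusted exact p = 0.077). The difference from WT-only regions was 5.48 percentage points. By the same test it passed without cKO replicate 1 (4.53, adjusted exact p = 0.021, 953 regions) and without cKO replicate 2 (5.07, 0.00049, 1582 regions). These 2 differences were smaller than that of the 447 regions, and rested on more regions, each called in a single cKO list. The call against shared regions ended with a gene-end distance of 2 kb (adjusted exact p = 0.16) or when a WT peak within 1 kb also excluded a region (0.17, Fisher's exact test). Another 164 (36.7%) lay between genes within 100 kb. The median distance to the nearest protein-coding gene end was 14252 bp in cKO-only, 15632 bp in shared and 55509 bp in WT-only regions, and 43.4%, 40.3% and 14.6% of each class lay within 10 kb of one. Where the strand of the assigned gene was known and its end lay within 10 kb, that end was the start in 80 of 151 (53.0%, 45.0 to 60.8), against 53.3% of WT-only regions.

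**Figure D2:**
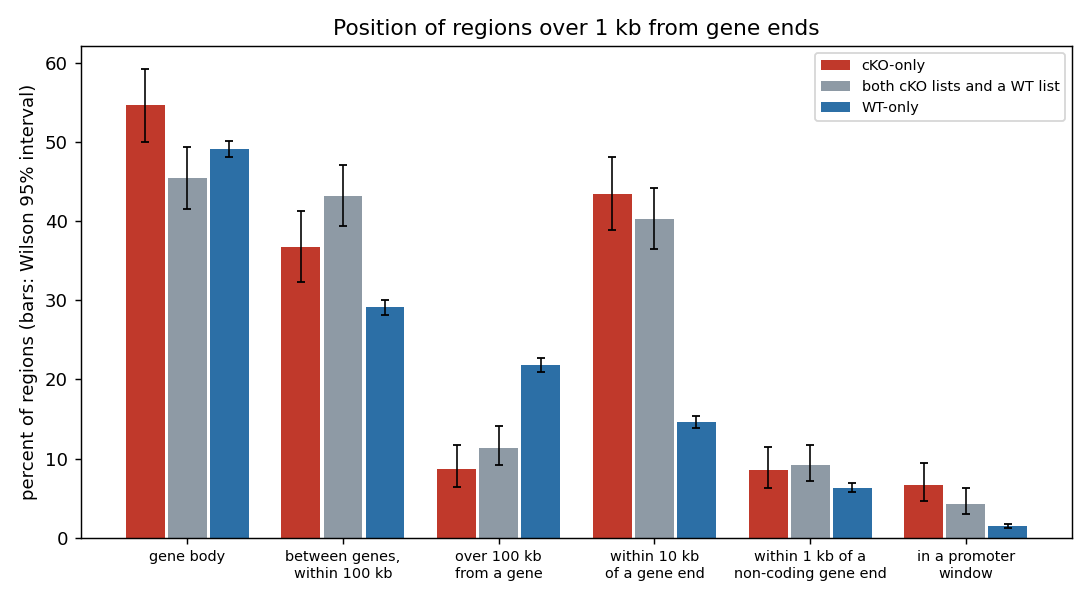
Percent of regions with each position, for 3 classes that all exclude summits within 1 kb of a protein-coding gene end; bars are Wilson 95% intervals. The cKO-only regions are at 8.72% for over 100 kb from a gene and at 43.4% for within 10 kb of a gene end, where WT-only regions are at 21.8% and 14.6%.

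A summit within 1 kb of an end of a non-coding gene was found for 38 cKO-only regions (8.50%, 6.26 to 11.5), against 9.15% of shared and 6.32% of WT-only regions (Fisher's exact test, adjusted exact p = 0.81 and 0.18). The nearest such gene was a long non-coding RNA in 34, a microRNA in 2 and a pseudogene in 2. They included the region between genes near Msi2, a stem-cell RNA-binding protein gene, 104 bp from an end of C030037D09Rik, with folds of 5.58 and 9.11. Another lay in the transcription factor gene Sox6, 699 bp from an end of its antisense RNA Sox6os, with 8.55 and 5.85. A tRNA gene end was within 1 kb of 1 region, and 2 regions lay on chromosome X (0.447%, against 1.12% of shared and 1.38% of WT-only regions; adjusted exact p = 0.42 and 0.23). None of these shares passed a test against either class with the 4 lists as deposited. Non-coding gene ends passed against WT-only regions without cKO replicate 1 (2.86 percentage points) or WT replicate 2 (2.58), and against shared regions, lower, without cKO replicate 2 (-2.72). Chromosome X passed against WT-only regions without cKO replicate 2 (-0.863). The chromosomes with the highest counts were 11 (46), 2 (41) and 7 (40), and Y had 0.

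The fold enrichment of the 447 regions was modest, and it chose them in part, so it is described without a test. In cKO replicate 1 the folds ran from 2.14 to 20.005 with a median of 5.32, and in replicate 2 from 2.19 to 17.4 with a median of 5.38. At the median region, 26 and 23 reads piled up at the summit over a local background of 3.72 and 3.20 reads per base. The median width was 263 bp. The summits of the replicates lay a median of 28 bp apart, and within 100 bp in 409 regions (91.5%). Only 27 regions (6.04%) had a mean fold of 10 or more, against 100 of the 623 shared regions (16.1%), whose median mean fold was 5.997 against 5.42.

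**Figure D3:**
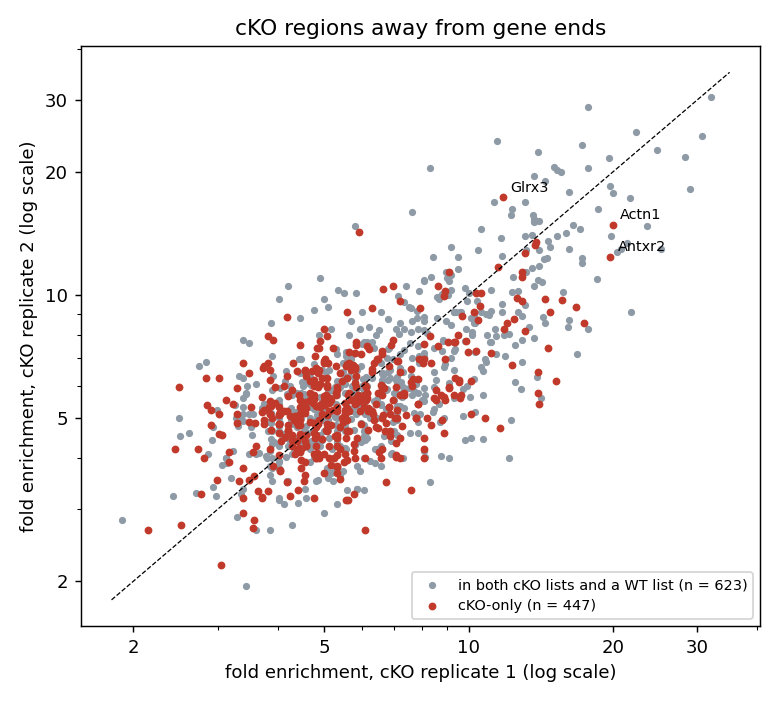
Fold enrichment in cKO replicate 1 (x) and replicate 2 (y), both on log scales, for each cKO-only region (red) and each region in both cKO lists and a WT list (grey); the dashed line marks equal folds. The red points reach 20.005 and 17.4, while grey points extend to 31.9 and 30.4.

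The strongest cKO-only region lay on chromosome 12 from 80146352 to 80146690, 20971 bp from Actn1, which encodes the actin crosslinker alpha-actinin. It had 103 and 67 reads at the summit and folds of 20.005 and 14.9, and the nearest WT peak was 461 bp away. A region in the body of Antxr2, an anthrax toxin receptor gene, had folds of 19.8 and 12.4. One 8825 bp from Glrx3, a glutaredoxin gene, had 11.8 and 17.4, the highest value of replicate 2. One near Asb10, a SOCS-box protein gene, had 13.8 and 13.5, the replicates being closest here among these 4.

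Meis2, a homeobox gene of the developing forebrain, held the fifth strongest region in its body. It lay on chromosome 2 from 116065932 to 116066253, 1488 bp from the gene end, with 13.7 and 13.2. A WT peak lay 4 bp away, next to the region and not within it. Others of the 20 strongest lay near Lingo1, a Nogo receptor partner gene, with 15.7 and 9.70 at 13110 bp outside the gene. Stmn1, which encodes the microtubule destabiliser stathmin, had 13.1 and 8.17 at 4378 bp outside. Rfng, whose product modifies Notch receptors, had 15.2 and 6.16 at 4518.5 bp outside, a wide gap between the replicates.

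Signalling and regulatory genes among the 20 strongest were Stat3, a cytokine-activated transcription factor gene (12.5 and 8.73), and Ralgds, a Ral exchange factor gene (14.8 and 9.10). Atxn7, which encodes a subunit of the SAGA complex, was another (12.6 and 9.84). These regions lay in the gene body. The immediate-early gene Ier5 had 12.9 and 9.67 at 89636 bp outside. Others lay in the bodies of the axonemal dynein gene Dnah17 (12.9 and 11.4, 820 bp from a WT peak), the endothelial matrix gene Mmrn2 (12.9 and 11.1) and the zinc-finger gene Zfp607b (16.7 and 9.33). Between genes lay those near Tifab (13.1 and 12.6, 18673.5 bp outside and 1466 bp from a WT peak) and Hepacam2 (14.4 and 9.76, 9500 bp outside). So did those near Fam241a (17.4 and 8.55, 52902 bp outside) and the olfactory receptor gene Olfr94 (14.6 and 7.43, 5816.5 bp outside). One on chromosome 2 from 133113781 to 133114057, at 11.5 and 11.7, was over 100 kb from any protein-coding gene. In 18 of these 20 the fold was higher in replicate 1, against 238 of all 447 (53.2%).

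**Figure D4:**
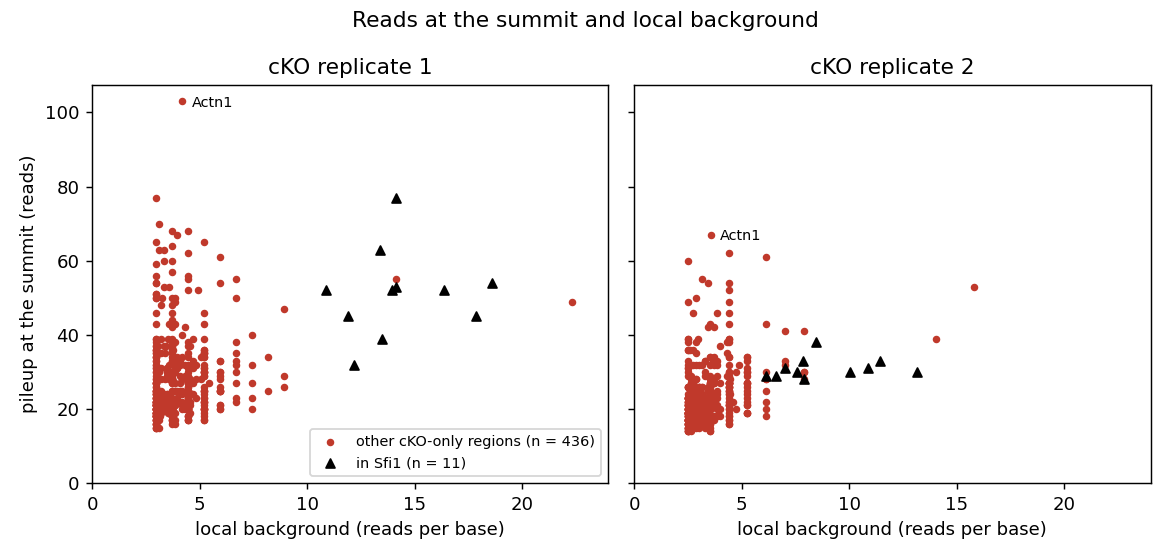
Reads piled up at the summit (y) against the local background in reads per base (x) for the cKO-only regions in each cKO library; triangles are the 11 regions in Sfi1. The Actn1 region stands highest, at 103 and 67 reads, over a background of 4.20 and 3.58, and the Sfi1 regions stand at backgrounds of 10.9 to 18.6 in replicate 1 and 6.14 to 13.2 in replicate 2.

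A single gene, Sfi1, held 11 of the 447 regions. Sfi1 encodes a centrin-binding protein of the centrosome. The regions lay on chromosome 11 within 15749 bp, from 3184299 to 3200047, and both WT lists held 0 peaks in the gene, while the cKO lists held 19 and 16. Folds were low, 2.44 to 5.15 in replicate 1 and 2.19 to 4.20 in replicate 2. The local background was high, 10.9 to 18.6 and 6.14 to 13.2 reads per base, against medians over all 447 of 3.72 and 3.20. A background of at least 3 times the library's smallest in both replicates was met by 10 regions of the 447 (2.24%), and by 2.57% of shared regions. The highest background of replicate 1 lay at E030030I06Rik on chromosome 10, with 22.3 and 14.04 reads per base and the lowest mean fold of all, 2.40 ± 0.365 (SD, n = 2). The highest of replicate 2 lay near Csf2ra on chromosome 19, with 14.1 and 15.8 reads per base. What part the high background has in the calls was not tested. Without the Sfi1 regions, an alternative chosen after the data were seen, every comparison of position against both other classes stayed on the same side of its threshold. The gene-body difference from shared regions went from 9.16 to 8.02 percentage points (Fisher's exact test, adjusted exact p = 0.014 and 0.042).

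**Figure D5:**
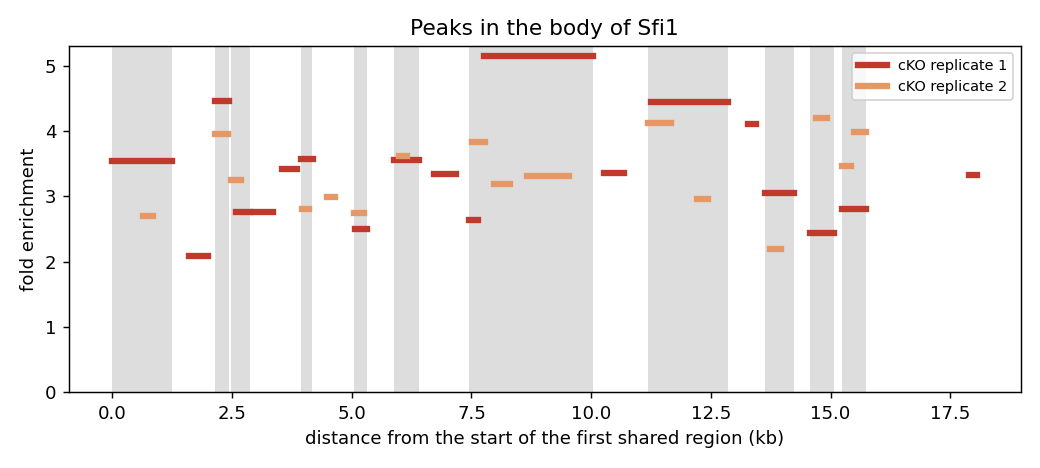
Peaks of cKO replicates 1 and 2 in the body of Sfi1, each drawn from start to end at its fold enrichment, against the distance from the first shared region in kb; grey bands are the 11 regions found in both lists and in no WT list. All bars stand between 2 and 5.2, and the bands cover less than 16 kb.

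Beyond Sfi1 the regions were scattered. The 408 regions assigned to a gene reached 387 protein-coding genes, 1.77% of the 21887. A region was assigned to the protein-coding gene whose body held its summit, or else to the one with the nearest end within 100 kb. Prex1, a Rac exchange factor gene, had 3: 2 in its body with 6.29 and 9.31 and with 3.84 and 6.54, and 1 outside it with 5.22 and 5.23. A further 9 genes had 2. Among them was App, whose other region, with folds of 8.87 and 4.61, lay 2739 bp from the gene end and 66 bp from a WT peak. Outside Sfi1, 6 regions had another within 10 kb.

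Of the genes on lists of cell types and pathways, most had no region assigned. Of 173 genes on 16 lists, 11 (6.36%) had an assigned cKO-only region, against 1.77% of all protein-coding genes, with no account taken of gene length. Since each region was assigned to a single gene, a gene without one can still have a region within 100 kb. Neither intermediate progenitor genes (0 of 10) nor interneuron genes (0 of 12) had an assigned region. The same held for choroid plexus and hem genes (0 of 10), endothelial and mural genes (0 of 11), microglia genes (0 of 8), ubiquitous genes (0 of 12), liver genes (0 of 9) and skeletal muscle genes (0 of 9). At a share of 1.77%, a list of 8 to 12 genes would most often have none. These zeros therefore do not set the lists apart. Among radial glia genes 1 of 18 had a region: Slc1a3, the glutamate transporter gene, at 5.12 and 4.27, 81447 bp outside the gene. Among upper-layer neuron genes there were 2 of 10, the homeobox gene Cux1 (4.24 and 3.22, 35874 bp outside) and the POU factor gene Pou3f3 (4.13 and 5.22, 4735 bp outside and 246 bp from a WT peak). Deep-layer genes had 1 of 10, the LIM-domain gene Lmo3 (7.09 and 5.24, in its body), and migration genes 1 of 15, the reelin pathway adaptor gene Dab1 (4.83 and 7.43, 42998 bp outside).

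Astrocyte and oligodendrocyte lineage genes had 2 of 11. They were Nfia, the nuclear factor I gene of gliogenesis (5.03 and 5.59, in its body), and Pdgfra, the growth factor receptor gene of oligodendrocyte precursors (5.93 and 5.51, in its body, 388 bp from a WT peak). The erythroid list had 1 of 8, Klf1 (6.63 and 5.09, in its body). The brown fat list had 1 of 9, Ebf2 (7.28 and 4.79, 21417 bp outside, with a WT peak 63 bp away). The PR-domain family had 2 of 12. Prdm8 had a region in its body at 4.76 and 3.19. Prdm16 itself had one in its body on chromosome 4 from 154635503 to 154635897, 1718 bp from the gene end, with 4.76 and 6.14. Both replicates had 22 reads at that summit, and a WT peak lay 325 bp away. By symbol, 8 of 427 zinc-finger genes, 11 of 375 solute carrier genes and 2 of 1110 olfactory receptor genes had an assigned region. The count was 0 of 355 vomeronasal receptor, 0 of 69 protocadherin and 0 of 87 cytosolic ribosomal protein genes. Over all protein-coding genes the share was 1.77%.

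The distance to the nearest WT peak is given as a description, with no other positions set beside it. A WT peak lay within 1 kb of 48 regions (10.7%, 8.20 to 13.95), within 10 kb of 144 (32.2%) and within 100 kb of 406 (90.8%). The median gap to the nearest WT peak was 22101 bp, 48510 bp counting replicate 1 alone and 25371 bp counting replicate 2 alone, whose list is longer. Of the 48 regions, 40 had a peak of WT replicate 2 within 1 kb, 22 one of replicate 1 and 14 both. The closest gaps were 3 bp in Psma6 and 4 bp in Meis2.

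The thresholds of the lists can be set beside the folds, as a description. The smallest fold that passes the library's own p-value at its median background was 3.53 and 3.01 for the WT lists. For the cKO lists it was 3.18 and 3.29. Both cKO folds exceeded both WT limits in 397 of 447 regions (88.8%, 85.6 to 91.4). With the lower fold divided by 2, this held for 44 (9.84%). With the 5th percentile of called folds as the limit, 4.22 and 3.58, the share was 68.9%. Since the regions had to pass the cKO limits, these shares are largely fixed by the choice. With 1 added to pileup and background, an equal fold is not an equal signal between libraries of different background, so they do not show whether WT would have detected these regions.

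The 1 kb threshold cuts through a continuous range. Just outside 1 kb lay the regions assigned to Ascl4 (1003 bp from a gene end, folds of 4.03 and 4.84), Tcf12 (1012.5 bp, 8.92 and 5.54), Nxnl1 (1055.5 bp, 5.87 and 5.69), Usp15 (1061.5 bp, 13.99 and 5.42) and Upf3a (1116 bp, 6.12 and 5.97). Just within it, and so not counted, lay those of Kcnk9 (982 bp, 5.14 and 4.96), Med12l (971 bp, 4.56 and 3.85), Zbtb2 (961.5 bp, 4.03 and 4.84), Rpl22 (945 bp, 8.28 and 4.64) and Heca (931 bp, 6.29 and 5.403).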

How the data were processed

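Peak lists of PRDM16 ChIP-seq from 2 WT and 2 cKO libraries were used, and the 4 input libraries were not. MACS2 2.1.1, Bowtie2 2.2.8, cutadapt, FastQC and the build mm10 are named, without settings, in the submitters' processing notes. The authors deposited 1 narrowPeak list per library, with a score, a fold enrichment (a ratio that equals summit pileup plus 1 over local background plus 1), and −log10 of the p-value and q-value. No listed q-value exceeded 0.0491.

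Lines on unplaced contigs (at most 37 in a list) were left out, and overlapping lines of a list were merged. The members, gene lists and tests were chosen with earlier results of these data known. The promoter windows, which came with the reference tables, were brought in after the lists had been seen. Fold and p-value together give each summit's whole-number pileup and local background under the Poisson model, which fitted 100% of the summits with a listed −log10 p of at most 300, within 0.001 on that scale. Gene positions and 32851 promoter windows came from RefSeq, GRCm38.p6, the assembly that mm10 denotes. The windows cover no gene on chromosome 18. A genome sequence was not used here, so GC content, repeats and motifs around other summits, and their window-size alternatives, were not run. Shares were compared by Fisher's exact test, two-sided, over 12 comparisons with Benjamini-Hochberg adjustment (scipy 1.17.1, statsmodels 0.14.6). Intervals are Wilson 95% intervals and cover counting error only. Scripts were tested on simulated data. Genes named are those of the 20 regions with the highest mean fold, of list members and of genes with 3 or more regions. Those at the extremes of background and of the 1 kb threshold are named too. App, Sox6, Msi2, Ush1g and the genes of promoter windows were named after their values were seen.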

Additional observations from a re-analysis of the deposited data

How the results depend on the processing

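The differences are in percentage points, cKO-only minus the other class, with Fisher's exact test. Under the 13 alternatives, the lower share over 100 kb from a gene (-14.7 to -11.6) and the higher share in promoter windows (3.89 to 5.89) kept their call against WT-only regions. The gene-body difference from WT-only regions passed with a gene-end distance of 0.5 kb (7.66) and with a −log10 q of at least 3 in all lists (6.24). That from shared regions was lost at 2 kb (6.15) and where a WT peak within 1 kb excluded a region (6.59). The share above the WT limits was 68.9% with the 5th percentile, and 6 listed genes had a region in their body.

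Leaving out 1 library gave 526 to 1582 regions; without cKO replicate 1 there were 953. Against WT-only regions, the ranges were 3.80 to 5.07 for gene bodies (passed without either cKO library), 1.30 to 2.86 for non-coding gene ends (passed without cKO replicate 1 or WT replicate 2), -0.0297 to 0.232 for tRNA gene ends and -1.05 to -0.728 for chromosome X (passed without cKO replicate 2). Against shared regions they were -4.68 to -2.32 for over 100 kb (passed without cKO replicate 2 or WT replicate 1), -2.72 to 0.727 for non-coding gene ends (passed without cKO replicate 2) and -0.230 to 0.305 for tRNA gene ends. The sign turned in 5 of these. Against shared regions they were non-coding ends without cKO replicate 1 (0.480) and without WT replicate 2 (0.727), and tRNA ends without cKO replicate 1 (-0.127) and without cKO replicate 2 (-0.230). Against WT-only regions it was tRNA ends without WT replicate 1 (-0.0297).

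With the replicate block, comparing same-numbered libraries only, there were 2049 regions for number 1 and 1070 for number 2. No label says that a number pairs the samples. Against WT-only regions the differences were 4.11 and 3.63 for gene bodies, 2.09 and 2.57 for non-coding gene ends, 0.350 and -0.0459 for tRNA gene ends, and -1.11 and -0.833 for chromosome X. Against shared regions they were -6.73 and -4.16 for over 100 kb, and for number 2 0.596 for non-coding and -0.201 for tRNA gene ends. All passed but the tRNA values of number 2 and the non-coding value against shared regions. The cause of these changes was not tested; single lists hold more regions. Peak lists carry no read depth, and what lay under the authors' threshold could not be seen.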
